A study of Mus musculus with 20 samples.

Results

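The transcripts of 10 genes of the p53 family and its best known effectors were followed across 10 groups of mouse germ cells, in which the chromatin remodelling ATPase gene Chd4 was or was not deleted. The genes were the 3 family members Trp53, Trp63 and Trp73, the p53 inhibitor Mdm2, the cell death genes Pmaip1, Bbc3, Bax and Bak1, the cell cycle inhibitor Cdkn1a, and Perp. They were taken by symbol, and all 10 were found in both deposited expression tables, which list 53722 genes for oocytes and 55291 for spermatogonia.

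In growing oocytes at postnatal day 10, 4 of the 9 genes tested rose in the knockout (Pmaip1, Bax, Cdkn1a and Perp), as did 9.12% of all genes tested. Of the 4, Pmaip1 rose the most, from 0.482 and 0.784 TPM (a transcript level scaled by gene length and library total) in the controls to 89.5 and 95.7 in the knockouts. Neither Trp53 nor Trp63, whose proteins can activate these genes, passed the test in the same cells. In control oocytes the same 4 genes fell between the non-growing and the growing stage. No member passed the test for the knockout in non-growing oocytes, where 1.36% to 1.92% of all genes did at each age, or in spermatogonia, where 0% did.

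The p53 family are transcription factors that bind a shared DNA element and activate genes of cell cycle arrest and death. In oocytes of resting follicles the main family member is p63, in its transactivating isoform TAp63. It is held as an inactive dimer and is switched on after DNA damage through CHEK2 and casein kinase 1, which makes it the quality guard of the ovarian reserve. Its death programme runs through the BH3-only proteins PUMA (Bbc3) and NOXA (Pmaip1), which free BAX and BAK to open the outer mitochondrial membrane. p21 (Cdkn1a) blocks cyclin-dependent kinases, PERP is a membrane protein that is both a p53 target in apoptosis and a component of desmosomes, and MDM2 is a ubiquitin ligase that removes p53 and is itself a target of p53. Gene-level values do not separate TAp63 from the truncated ΔNp63.

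RNA was sequenced from 20 libraries, 2 in each group, of mice of mixed strain, with C57BL/6, 129S1/Sv and FVB/NJ in their ancestry. Non-growing oocytes (NGO) at postnatal days 1 and 5 (P1, P5) and undifferentiated spermatogonia at P3 came from the knockout DcKO (Chd4 f/-; Ddx4-Cre Tg/+) and its control Dctrl (Chd4 f/+; Ddx4-Cre Tg/+), so both carried Cre and the control had 1 functional Chd4 allele after recombination. NGO and growing oocytes (GO) at P10 came from the knockout GcKO (Chd4 f/f; Gdf9-iCre Tg/+) and the control Gctrl (Chd4 f/f), which had no Cre. In every P10 comparison of knockout and control, loss of Chd4 and presence of Cre therefore cannot be told apart. Ddx4-Cre acts in germ cells and Gdf9-iCre in oocytes. The labels do not say that replicates came from separate animals, so each p-value speaks of the spread among the libraries and not of animals.

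The recovered depth was 15.35 to 30.14 M reads per library. Chd4 over its whole gene was at 24.7 and 31.2 TPM in P1 controls against 4.32 and 1.9 in knockouts, at 14.5 and 17.9 against 8.28 and 4.94 at P5, and at 249 and 286 against 40.2 and 51.7 in spermatogonia. At P10 it was low in the controls too, at 1.63 and 1.85 against 1.34 and 0.247 in NGO and at 1.56 and 2.96 against 0.631 and 1.54 in GO. The 5 germ cell markers (Dppa3, Ddx4 and others) summed to between 45074 and 107760 TPM in oocytes. All 6 markers of undifferentiated spermatogonia were at 1 TPM or more in all 4 spermatogonia libraries. Differences were tested with limma, a linear model over all genes, on log2(TPM + 1), with p-values adjusted over all genes tested and a threshold of 0.05. In this bulk RNA, fewer cells of a type and less RNA per cell cannot be told apart.

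Promoter sequence is shown for Bax and Cdkn1a, the members that rose in knockout GO and have a RefSeq window in the table used. Of the 10 genes, 7 had such windows, with 11 transcription starts. Each window below is the 250 bases before a start, 5′ to 3′ on the gene's strand, from RefSeq on GRCm38.p6, and capitals mark matches to the p53 half-site motif or to GGGCGG on either strand. Bax has 1 start, at chr7:45466899-45467148 on the minus strand. Cdkn1a has 2 starts, at chr17:29090729-29090978 and chr17:29093519-29093768 on the plus strand.
Bax: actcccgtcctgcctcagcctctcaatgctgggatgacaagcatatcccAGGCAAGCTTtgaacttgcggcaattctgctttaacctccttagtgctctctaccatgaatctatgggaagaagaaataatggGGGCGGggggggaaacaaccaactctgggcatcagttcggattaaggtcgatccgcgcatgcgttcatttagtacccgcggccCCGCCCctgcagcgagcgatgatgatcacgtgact
Cdkn1a start 1: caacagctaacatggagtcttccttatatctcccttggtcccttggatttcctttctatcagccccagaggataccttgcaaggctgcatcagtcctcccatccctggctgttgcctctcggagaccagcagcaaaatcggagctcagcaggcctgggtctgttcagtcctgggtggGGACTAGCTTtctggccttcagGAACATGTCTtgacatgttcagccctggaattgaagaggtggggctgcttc
Cdkn1a start 2: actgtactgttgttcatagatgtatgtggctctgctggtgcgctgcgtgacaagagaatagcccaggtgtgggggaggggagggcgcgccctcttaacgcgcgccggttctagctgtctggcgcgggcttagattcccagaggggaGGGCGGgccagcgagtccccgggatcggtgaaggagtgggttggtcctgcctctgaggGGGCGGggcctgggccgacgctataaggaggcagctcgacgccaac

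The Bax window holds 1 half-site and 2 GGGCGG matches, 1 on each strand. The window of Cdkn1a start 1 holds 2 half-sites, which lie close enough to count as 1 full site (a pair of half-sites with a spacer of up to 13 bases). Start 2 of Cdkn1a holds 2 GGGCGG matches and no half-site. Trp53 and Mdm2 had 1 half-site each, and none was found in the windows of Trp73, Bbc3 and Bak1. The half-site reads the same on both strands and was found in 7.13% of all 32851 promoter windows of this length, the full site in 0.06% and GGGCGG in 32.74%. TATAAA (12.37% of windows) and CCAAT (33.85%) were in neither the Bax nor the Cdkn1a windows on either strand. A match is a description of letters and does not show binding.

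**Figure D1:**
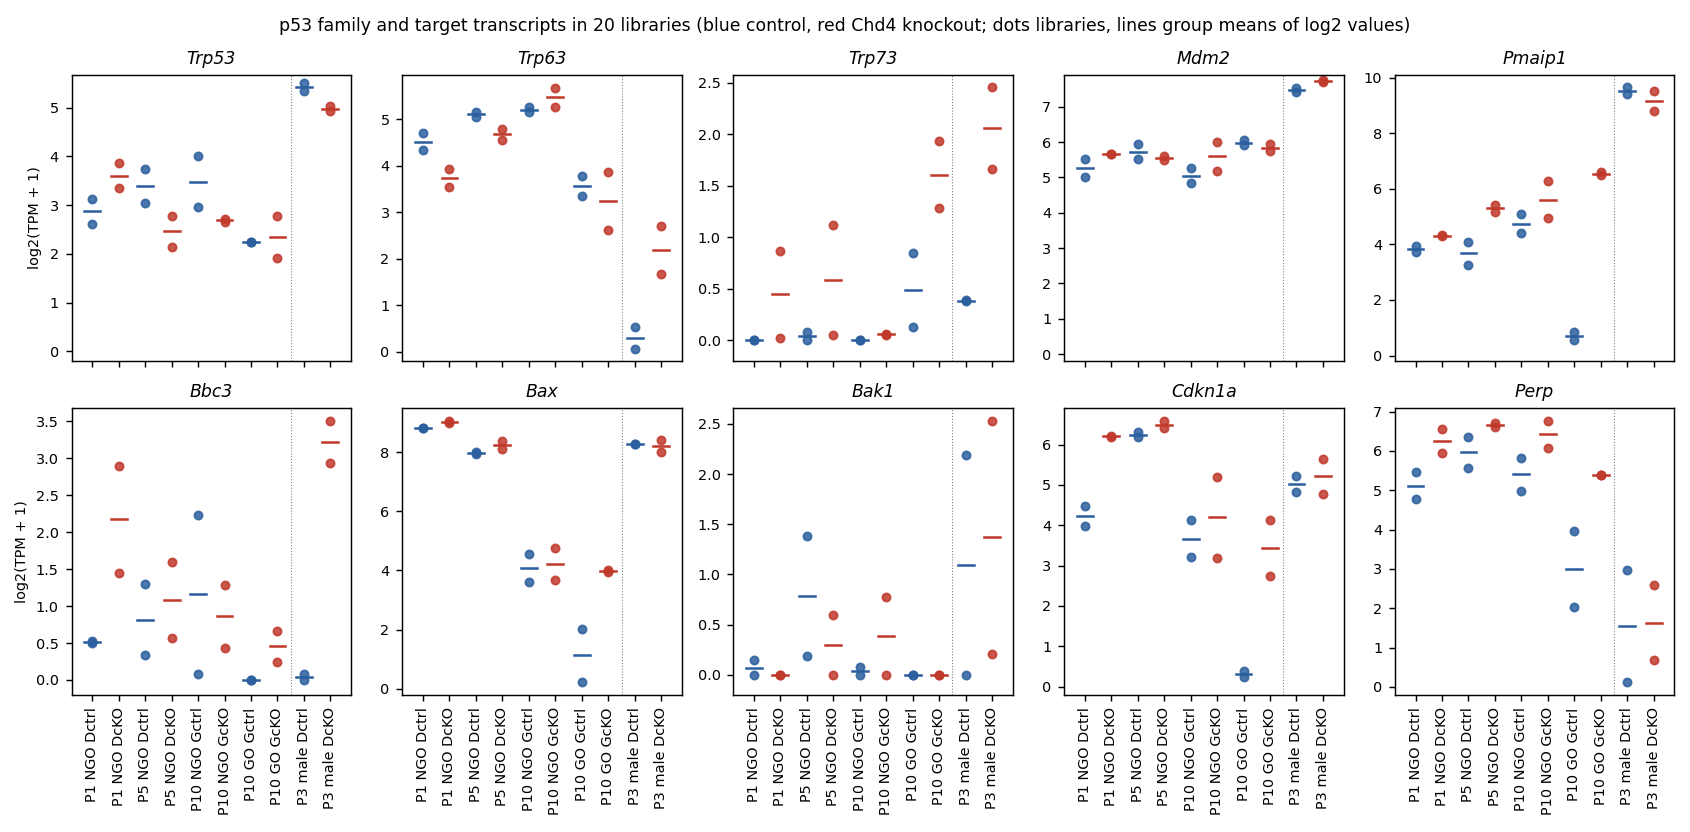
Level of each of the 10 genes in the 20 libraries as log2(TPM + 1), with dots for libraries, lines for group means, blue for controls and red for Chd4 knockouts. The dotted line separates the oocyte table from the spermatogonia table, which were normalised separately. Pmaip1 and Cdkn1a lie lowest in control GO, Trp63 lies below 6 TPM in all 4 spermatogonia libraries, and Bax lies higher at P1 and P5 than in any P10 library.

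Trp63 (ENSMUSG00000022510, chr16:25683763-25892102, GRCm38) was present in every oocyte library, from 5.11 to 50.1 TPM with a median of 23.8. The P1 controls were at 19.0 and 24.9 TPM and the P1 knockouts at 10.7 and 14.2. At P5 the controls were at 34.6 and 32.0 TPM and the knockouts at 26.5 and 22.6. Knockouts thus lay below controls without overlap at both ages, but neither difference passed: the log2 fold change (knockout minus control, on the log2(TPM + 1) scale) was -0.77 at P1 with a limma adjusted p of 0.586 and -0.43 at P5 with 0.791. In P10 NGO the controls were at 34.3 and 37.4 TPM and the knockouts at 37.2 and 50.1, which overlap. In GO the controls were at 12.7 and 9.18 TPM and the knockouts at 13.5 and 5.11, and the controls lay inside the range of the knockouts. The difference in GO was -0.33 with a 95% interval from -1.21 to 0.55 (limma adjusted p = 0.739).

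Trp63 fell between the non-growing and the growing stage at P10, by 1.64 on the log2 scale in controls (standard error, SE, 0.403, limma adjusted p = 0.00999) and by 2.23 in knockouts (limma adjusted p = 0.00194), with no overlap between stages in either genotype. The first value had a limma adjusted p of 0.0760 without control GO replicate 2, and the second 0.0746 when only the groups compared were fitted. The change between stages was not shown to differ between genotypes, at -0.59 with a limma adjusted p of 0.634. By group mean, Trp63 was highest in P10 NGO knockouts, followed by P10 NGO controls, P5 controls, P5 knockouts, P1 controls, P1 knockouts, GO controls and GO knockouts, with the spermatogonia last. Among oocyte groups, the neighbours in this order whose libraries did not overlap were P5 control and P5 knockout, and P1 control and P1 knockout.

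The genes whose levels followed Trp63 most closely over the 16 oocyte libraries, of 10330 compared, were Pgm2l1, Ica1l, Rab25, Ccdc171 and Actr8. Pearson's r of the log2 values was 0.943 for Pgm2l1 and 0.935 for Ica1l, and 0.909 to 0.916 for the other three. Pgm2l1 had group means of 94.1 TPM in P10 NGO controls and 20.4 in GO controls, against 35.9 and 10.9 for Trp63. The libraries share 8 groups of 2 and 1 normalization, so these values are a description.

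In spermatogonia Trp63 was low in controls, at 0.438 and 0.0414 TPM (22 and 3 reads, the second near the detection limit), and at 2.20 and 5.48 in knockouts. The knockouts lay above the controls without overlap, by 1.9 on the log2 scale, and the limma adjusted p was 0.251. Genes were tested if at least 2 libraries had 1 TPM, and in spermatogonia Trp63 reached that only through the 2 knockouts, so its selection for the test already called for a difference. Epithelial markers moved with it: the 6 genes of that list (Krt18 highest) summed to 81.6 to 84.9 TPM in controls and 338 to 488 in knockouts, with Msln at 0 in the knockouts. Their part in the result was not tested.

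Trp53 (ENSMUSG00000059552, chr11:69580359-69591873, GRCm38) was low in oocytes, from 2.74 to 15.1 TPM with a median of 5.87. It was at 5.11 and 7.74 TPM in P1 controls and 13.5 and 9.18 in P1 knockouts, while at P5 it was at 7.27 and 12.4 in controls and 5.85 and 3.42 in knockouts. Knockouts were above controls at P1 and below them at P5, without overlap at either age. Neither knockout effect passed, and their difference (P5 minus P1) was -1.67 on the log2 scale with an unadjusted p of 0.0355 and a limma adjusted p of 0.614. In P10 NGO the controls were at 6.73 and 15.1 TPM and the knockouts at 5.58 and 5.33, a difference of -0.79 (limma adjusted p = 0.520). In GO the controls were at 3.74 and 3.71 TPM, inside the knockout range of 5.90 and 2.74, and the interval of the difference ran from -0.98 to 1.19. Spermatogonia had 39.4 and 44.1 TPM in controls and 31.5 and 29.6 in knockouts, lower without overlap (-0.44, limma adjusted p = 0.430).

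Trp73 (ENSMUSG00000029026, chr4:154056253-154140208, GRCm38), the third family member, was scarcely detected. It was under 1 TPM in 13 of the 16 oocyte libraries and listed at 0 in 5, all of them controls. The 3 libraries above 1 TPM were P5 knockout replicate 2 at 1.18 and both GO knockouts at 1.44 and 2.81. The GO controls were at 0.0951 and 0.798 TPM (4 and 33 reads), below the knockouts without overlap, with a log2 difference of 1.12 and a limma adjusted p of 0.109. Between stages Trp73 was higher in knockout GO than in knockout NGO, which were at 0.0383 and 0.0447 TPM (2 reads each), by 1.55 with a limma adjusted p of 0.0209, and this call was lost in 4 of 10 alternatives, among them leaving out GO knockout replicate 2 (0.127). Of the 3 libraries that took Trp73 past the filter on low values, 2 were these GO knockouts, so both comparisons with them rest on a gene selected through its high group. Spermatogonia had 0.302 and 0.313 TPM in controls and 2.16 and 4.49 in knockouts, higher without overlap and not past the test (limma adjusted p = 0.268), and here too Trp73 met the filter through the knockouts alone. Trp73os, on the opposite strand, shares 5.06% of the exon bases of Trp73, and the counting strand is not given in the sources used here.

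Mdm2 (ENSMUSG00000020184, chr10:117688875-117710758, GRCm38) was present in every library, at 27.5 to 65.7 TPM in all oocyte libraries with a median of 48.6. No knockout effect on it passed, and the one in GO was -0.14 with an interval from -0.83 to 0.55. In GO controls it was at 59.1 and 65.7 TPM, above the NGO controls at 37.1 and 27.5, a rise of 0.94 with a limma adjusted p of 0.0483. That call held in 4 of 11 alternatives, and the limma adjusted p was 0.0622 with a replicate block. Spermatogonia held 170 and 184 TPM in controls and 216 and 208 in knockouts, where the log2 difference was 0.26 (limma adjusted p = 0.433).

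Pmaip1 (ENSMUSG00000024521, chr18:66458533-66465565, GRCm38) encodes NOXA, the BH3-only activator of mitochondrial death. In P1 NGO it was at 12.1 and 14.4 TPM in controls and 18.8 and 19.0 in knockouts. In P5 NGO it was at 16.1 and 8.53 TPM in controls and 35.0 and 42.1 in knockouts. The knockouts were higher without overlap at both ages, and neither difference passed (P1 0.49, limma adjusted p = 0.895, and P5 1.62 with a 95% interval of 0.64 to 2.61, limma adjusted p = 0.119). P10 NGO libraries overlapped, with controls at 20.3 and 33.1 TPM and knockouts at 77.4 and 29.6.

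In growing oocytes the Pmaip1 libraries separated widely. The controls were at 0.482 and 0.784 TPM, which is 10 and 16 reads, and the knockouts at 89.5 and 95.7 TPM, which is 1841 and 1698 reads. Pmaip1 was thus the lowest in control GO of all oocyte groups and the highest in knockout GO. The log2 fold change was 5.85 with a standard error of 0.452 and a 95% interval from 4.86 to 6.83 (limma adjusted p = 7.65e-06), and it passed in all 11 other settings of the analysis that were run, with limma adjusted p values from 6.33e-06 to 0.00982. The knockout effect in GO exceeded that in NGO by 4.98 on the log2 scale (SE 0.639, limma adjusted p = 0.000882). In spermatogonia Pmaip1 was at 678 and 810 TPM in controls and 445 and 732 in knockouts, which overlap.

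Bbc3 (ENSMUSG00000002083, chr7:16308393-16318205, GRCm38) encodes PUMA, the other BH3-only target. It was at 0.437 and 0.413 TPM in P1 controls (7 reads each) and 1.74 and 6.45 in P1 knockouts (33 and 152 reads). The knockouts were higher without overlap, by 1.66 on the log2 scale with an unadjusted p of 0.0360 and a limma adjusted p of 0.420. At P5 and in P10 NGO the groups overlapped, between 0.0610 and 3.70 TPM. In GO both controls were at 0 reads, where 3 reads would be 0.186 and 0.189 TPM, and the knockouts were at 3 and 8 reads. No difference was detectable at this depth.

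The largest effect on Bbc3 was in spermatogonia, where the controls had 0 and 1 read and the knockouts 77 and 130, or 6.68 and 10.4 TPM. The fitted log2 difference was 3.18 with a 95% interval from 1.79 to 4.58 and an unadjusted p of 0.00143, and the limma adjusted p was 0.143, between 0.125 and 0.439 over 8 alternatives. Bbc3 met the filter only through these 2 knockouts, so this test is no independent sign of a difference. No gene of the 18671 tested passed in spermatogonia, where 3004 (16.1%) had an unadjusted p under 0.05. The epithelial marker sum given above for Trp63 and the stromal sum (6 genes, 7.70 to 11.4 TPM in controls, 34.0 to 38.2 in knockouts) moved in the same direction. Most of the stromal sum was Col1a1 (means of 6.71 and 25.8 TPM). The endothelial sum (4 genes) also rose, at 17.9 to 18.3 TPM in controls and 40.1 to 48.9 in knockouts. So did the blood and immune sum (5 genes), at 3.91 to 6.33 and 10.7 to 22.4. The granulosa and Sertoli cell sum (12 genes) overlapped, at 103 to 154 TPM in controls and 140 to 147 in knockouts. The part of these cells in the Bbc3 value was not tested.

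Bax (ENSMUSG00000003873, chr7:45461697-45466898, GRCm38) encodes the pore former of the mitochondrial outer membrane. It was the most abundant member in P1 and P5 oocytes. At P1 the controls had 451 and 449 TPM of it and the knockouts 526 and 508. At P5 the controls had 242 and 257 TPM and the knockouts 272 and 334. Knockouts lay above controls without overlap at both ages by small amounts (0.20 and 0.27 on the log2 scale, limma adjusted p of 1.00 and 0.946). In P10 NGO it was at 22.4 and 11.2 TPM in controls and 26.2 and 11.7 in knockouts, which overlap.

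Bax fell by 3.89 on the log2 scale between P5 and P10 control NGO, with a limma adjusted p of 0.000281 and the call kept in all 11 alternatives. The controls of these ages also differ in genotype and Cre, since those at P5 are Chd4 f/+ with Ddx4-Cre and those at P10 Chd4 f/f without Cre, so age and genotype cannot be told apart. The median gene fell by 0.47 in this comparison, and by quantile normalization the median was 0.03, with 51.4% of calls higher against 24.5%.

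Growing oocytes held less Bax still in the controls, at 3.09 and 0.170 TPM (37 and 2 reads), and 15.2 and 14.4 TPM in the knockouts (180 and 147 reads). The knockouts were alike and both lay above both controls, which differed widely from each other. The log2 fold change was 2.85 (SE 0.518, limma adjusted p = 0.00303), and 0.0797 when only the 2 groups compared were fitted. From NGO to GO, Bax fell by 2.95 in controls (limma adjusted p = 0.00124, and 0.0528 from those groups alone), while in knockouts the difference was -0.23 (limma adjusted p = 0.908). The knockout effect was greater in GO than in NGO by 2.71 (limma adjusted p = 0.0443), a call that held in 6 of 15 alternatives. Of the exon bases of Bax, 12.2% are shared with the model Gm45808 on the same strand, so its reads could be split.

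Bak1 (ENSMUSG00000057789, chr17:27019810-27029009, GRCm38), the partner of Bax, was listed at 0 in 10 of 16 oocyte libraries, including all 4 GO libraries, and reached 1.61 TPM at most. It did not pass the filter on low values in oocytes and was not tested there. In spermatogonia it was at 0 and 3.56 TPM in controls and 0.153 and 4.78 in knockouts. The replicates differed more than the genotypes. Ggnbp1 overlaps its exons on the opposite strand.

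Cdkn1a (ENSMUSG00000023067, chr17:29090976-29100727, GRCm38) encodes the cyclin-dependent kinase inhibitor p21. At P1 it was at 14.9 and 21.2 TPM in controls and 73.4 and 72.3 in knockouts, and at P5 at 78.3 and 71.7 in controls and 83.5 and 95 in knockouts. The P1 knockouts thus lay within the range of the P5 controls, and the P1 controls lay far below both. The knockout effect at P1 was 1.97 with a standard error of 0.607 and an interval from 0.65 to 3.30, and its limma adjusted p was 0.178. From the P1 groups alone it was 0.0331, and over the 11 alternatives it ran from 0.0331 to 0.698. Between P1 and P5 controls the difference was 2.02 with a limma adjusted p of 0.0938, which passed at 0.0389 with quantile normalization, 0.0434 with voom (limma's model for counts) on reads recovered from TPM and 0.00772 with those groups alone. At P5 the knockout effect was 0.25 (limma adjusted p = 0.972).

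At P10, Cdkn1a was at 8.21 and 16.6 TPM in control NGO and 36.0 and 8.16 in knockout NGO. These groups overlap, and both knockout replicates lie outside the control range on opposite sides. From P5 to P10 control NGO it fell by 2.58 (limma adjusted p = 0.00980), with 0.0693 without P10 control replicate 1 and 0.0622 without P5 control replicate 1, under the same limit of genotype as for Bax. In GO the controls were at 0.185 and 0.302 TPM (5 and 8 reads) and the knockouts at 16.4 and 5.73 (439 and 132 reads).

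Both GO knockout libraries were far above both controls, although they differed from each other. The rise of Cdkn1a was 3.12 on the log2 scale (SE 0.607, limma adjusted p = 0.00462, and 0.000542 to 0.0492 over 11 alternatives, all past the threshold). From NGO to GO it fell by 3.36 in controls (limma adjusted p = 0.00150) and differed by -0.76 in knockouts (limma adjusted p = 0.445). The difference between the GO and NGO knockout effects was 2.59 with a limma adjusted p of 0.0950. In spermatogonia the controls were at 36.3 and 27.4 TPM, inside the knockout range of 26.5 and 48.8. AC167363.2, on the opposite strand, shares 7.68% of the exon bases of Cdkn1a.

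Perp (ENSMUSG00000019851, chr10:18845020-18857073, GRCm38) was at 42.8 and 26.4 TPM in P1 controls and 60.8 and 93.3 in P1 knockouts. At P5 the controls had 80.4 and 46.7 TPM of it and the knockouts 96.0 and 103. In P10 NGO it was at 30.7 and 55.2 TPM in controls and 66.7 and 107 in knockouts. Perp was higher in knockouts without overlap at all 3 ages, with differences of 1.14, 0.69 and 1.02 and limma adjusted p values of 0.543, 0.733 and 0.428. In GO it was at 14.7 and 3.09 TPM in controls and 40.6 and 40.9 in knockouts, again without overlap.

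The rise of Perp in GO was 2.38 (SE 0.559, limma adjusted p = 0.0135). Its limma adjusted p was 0.0541 without knockout replicate 1, 0.0542 without knockout replicate 2, 0.117 without control replicate 2 and 0.0929 from these groups alone. From NGO to GO it fell by 2.40 in controls (limma adjusted p = 0.00745), and it was 0.0735 without GO control replicate 2, 0.0628 without NGO control replicate 2 and 0.0716 from these groups alone. The 6 epithelial markers summed to 0.647 to 3.22 TPM in control GO and 10.2 to 27.5 in knockout GO, led by Krt8 there, with Krt19 and Krt7 at 0 in the controls and Msln at 0 in both. Upk3b, the most abundant of them in control GO, went the other way, from 0.417 to 3.02 TPM in controls and 0.0437 to 0.113 in knockouts. The epithelial sum was lower in knockouts at P1, where Perp was higher, at 116 to 189 TPM in controls and 26.5 to 94.5 in knockouts. It was higher in knockouts at P5 (4.28 to 14.8 against 24.8 to 30.9 TPM) and in P10 NGO (0.0184 to 0.0995 against 1.29 to 5.65). The part of epithelial cells in the Perp values was not tested. In spermatogonia Perp was at 0.0856 and 6.88 TPM in controls and 5.00 and 0.607 in knockouts, and the groups overlapped.

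**Figure D2:**
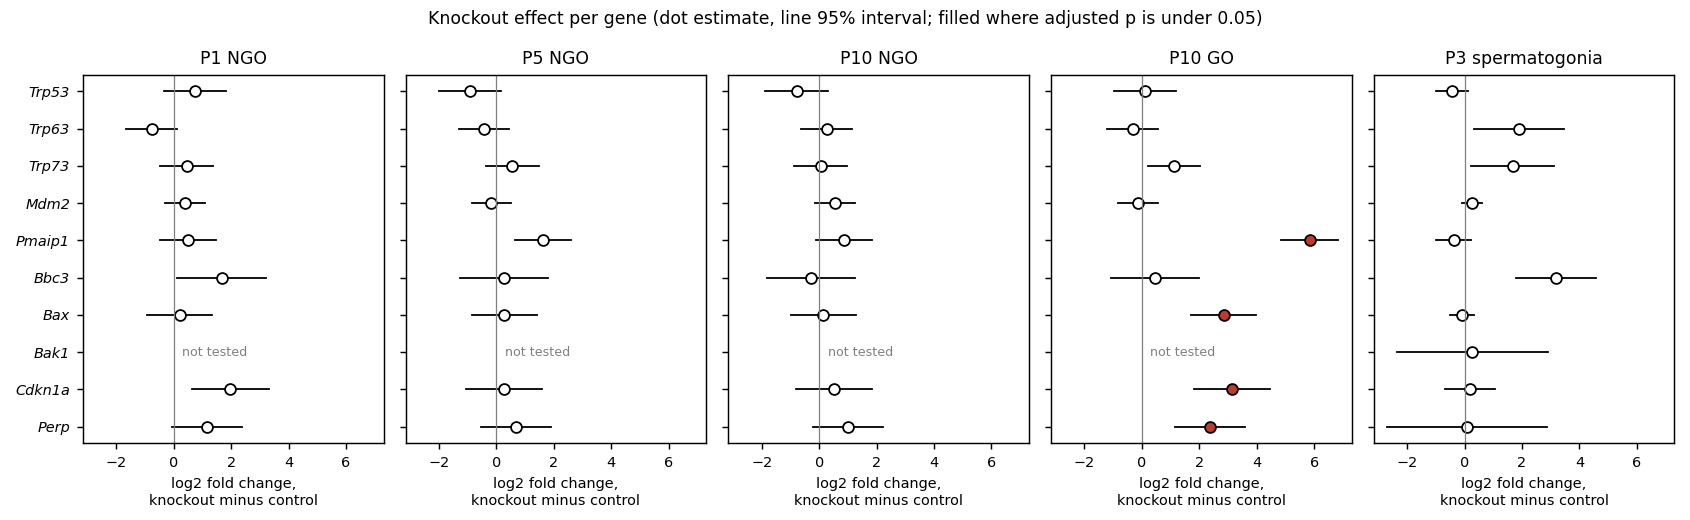
Log2 fold change of each gene between Chd4 knockout and control in the 5 cell groups, on the log2(TPM + 1) scale, with lines for 95% intervals and filled dots where the limma adjusted p is under 0.05. The 4 filled dots are Pmaip1, Bax, Cdkn1a and Perp in P10 GO, and no dot is filled in the other 4 groups.

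Over the whole set, 4 of the 9 members tested in GO rose with the knockout and none fell, where 9.12% of all 20470 genes tested rose and 13.8% changed in either direction. The GO knockouts carried Cre and the GO controls did not, so loss of Chd4 and Cre cannot be told apart here. The members' median log2 difference was 1.12 (0.72 with quantile normalization) and is the value of Trp73, which met the filter through the GO knockouts. Without Trp73 the median of the other 8 was 1.42 (1.37), and that of all genes tested 0.06. Of all calls in this comparison 66.0% were higher, and 52.6% with quantile normalization. Libraries did not overlap and were higher in the knockout for 6 of the 9, or 5 of the 8 without Trp73, against 30.3% of all genes. Bbc3 is among the 5 at the detection limit, with 0 reads in both controls and 3 and 8 in the knockouts. Of the oocyte markers, Sohlh1 was at 0.935 to 1.12 TPM in control GO and 22.5 to 45.2 in knockout GO. It was at 89.2 to 95.2 TPM in control NGO. Figla (316 to 468 against 753 to 965 TPM), Nobox, Gdf9 and Zp3 were also higher in knockout GO without overlap, and Ooep overlapped. Markers of other cells differed in part. The supporting cell markers (12 genes) summed to 3.63 to 10.2 TPM in controls and 8.48 to 22.0 in knockouts, ranges that overlap, with Cldn11 and Nr5a1 at 0 in both. The 4 endothelial genes summed to 1.03 to 3.23 and 3.61 to 100 TPM, where the highest value is Pecam1 at 98.6 in 1 knockout library (2.30 in the other), with Kdr at 0.0171 at most and Cdh5 at 0. The 6 stromal genes summed to 0 to 0.0606 and 0.202 to 2.55. The germ cell sum also differed, at 46136 to 47666 and 96873 to 107760 TPM, most of it Dppa3 (means of 46021 and 99907). Mael and Sycp3 (154 to 229 against 1762 to 1921) were also higher in knockouts. Dazl was lower there (437 to 455 against 213 to 352), and Ddx4 overlapped. The part of all these in the members' values was not tested.

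In NGO no member passed for the knockout at P1, P5 or P10, where 1.7%, 1.36% and 1.92% of all genes changed by limma. At an unadjusted p under 0.05 there were 2 members at P1 (Cdkn1a and Bbc3), 1 at P5 (Pmaip1) and 0 at P10, against 10.2%, 11.8% and 15.6% of all genes, and voom on recovered reads also called 0 at each age. At P1 the libraries of 8 of the 9 members tested were higher in the knockout without overlap, where 18.4% of all genes were, and those of Trp63 were lower, where 22.5% were. Trp73 is among the 8 and passed the filter through other libraries, with both P1 controls at 0. Its P1 knockouts were at 0.0202 and 0.830 TPM (1 and 51 reads), so the lower of them is separated by 1 read. At P5, 4 of the 9 were higher without overlap (23.9% of all genes) and 2 lower (23.4%), and in P10 NGO 2 were higher (17.4%) and 1 lower (17%). The 2 higher in P10 NGO were Perp and Trp73. Trp73 was there at the detection limit, with 0 reads in both controls and 2 in each knockout. In spermatogonia 0 of 10 members passed by limma, as did 0% of all genes, and 0 by voom. There 3 members had an unadjusted p under 0.05 (Bbc3, Trp63 and Trp73, against 16.1% of all genes), 4 were higher without overlap (27.9% of all genes) and 1 lower (18%). Those 3 met the filter only through the knockouts, and of the other 7 members 0 had an unadjusted p under 0.05 and 1 was higher without overlap.

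**Figure D3:**
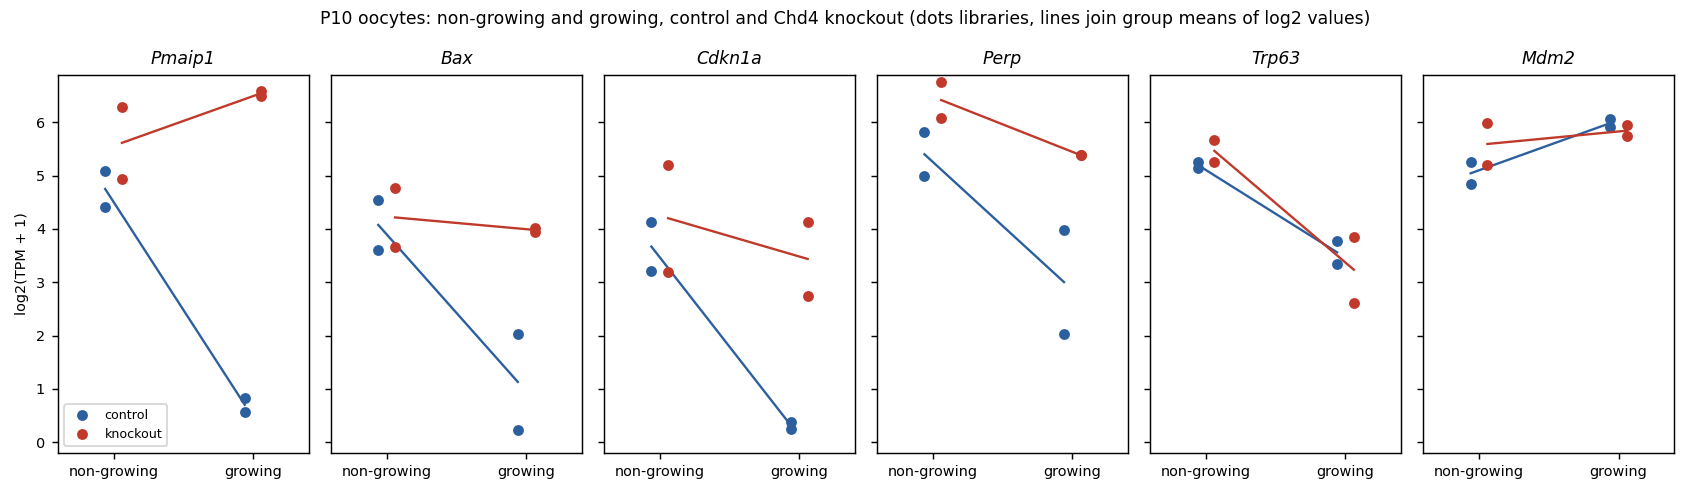
Levels of 6 members at P10 as log2(TPM + 1) in non-growing and growing oocytes, with dots for libraries, lines joining group means, blue for controls and red for Chd4 knockouts. The control lines of Pmaip1, Bax, Cdkn1a and Perp drop steeply, the knockout line of Pmaip1 does not, and the lines of Trp63 drop in both genotypes.

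Between NGO and GO controls at P10, 5 of the 9 members tested were lower in GO (Pmaip1, Bax, Cdkn1a, Perp and Trp63), where 13.2% of all genes were, and 1 was higher (Mdm2), where 11% were. Pmaip1 fell by 4.05 on the log2 scale with a limma adjusted p of 4.76e-05. In knockouts 2 of 9 changed between stages, Trp63 lower and Trp73 higher, against 20.4% of all genes. Without Trp73, which met the filter through the GO knockouts, 1 of 8 did, and Pmaip1 differed by 0.93 with a limma adjusted p of 0.180. The GO controls enter both the stage comparison and the knockout comparison, so a low value in those 2 libraries moves both: the members' values there were 0.482 and 0.784 TPM for Pmaip1, 3.09 and 0.170 for Bax, 0.185 and 0.302 for Cdkn1a and 14.7 and 3.09 for Perp. The test of the difference between the GO and NGO knockout effects called 2 members, Pmaip1 and Bax, where 7.46% of all genes were called.

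Between P1 and P5 no member passed in controls (4.7% of all genes changed) or in knockouts (5.13%) by limma. At an unadjusted p under 0.05 there were Cdkn1a in controls (16.3% of all genes) and Trp53 and Trp63 in knockouts (17.1%). By voom on recovered reads Bax passed in both genotypes (limma adjusted p of 0.0473 in controls and 0.0320 in knockouts), as did Cdkn1a in controls. The change between P5 and P1 in the knockout effect passed for no member, against 0.313% of all genes, with Trp53 alone at an unadjusted p under 0.05 (7.35% of all genes). From P5 to P10 control NGO, 2 of the 9 members were lower (Bax and Cdkn1a), where 17.1% of all genes were.

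The rest of the pathway was read from a list of 15 upstream regulators and kinases, all tested, and a list of 31 other p53 targets, of which 27 were tested in oocytes and 30 in spermatogonia. In knockout GO, 0 of the 15 regulators and 0 of the 27 other targets passed by limma, where 13.8% of all genes tested did. The median log2 difference was 0.08 for the regulators and 0.17 for the targets, beside 0.06 for all genes tested. Chek2, the kinase upstream of p63, was at 9.47 and 12.7 TPM in control GO and 34.3 and 24.7 in knockout GO, a difference of 1.33 with a limma adjusted p of 0.0624. At P1 and P5 Chek2 was lower in knockouts without overlap. Of the casein kinase 1 genes, Csnk1e was higher in knockout GO without overlap, at 32.8 and 18.7 TPM in controls against 66.4 and 41.6. Csnk1a1 was lower without overlap, at 59.3 and 64.2 TPM in controls against 52.7 and 52.5, and Csnk1d overlapped. Chek2 was chosen here after its values were seen, and the casein kinase 1 genes were added beside it.

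Elsewhere 1 gene of these lists passed for the knockout at P1 and 1 in P10 NGO, where 1.7% and 1.92% of all genes tested did. Ddb2, a DNA repair gene and p53 target, fell at P1 from 3.49 and 5.08 TPM to 0.163 and 0.165, by 2.17 on the log2 scale (limma adjusted p = 0.0199). That call held in 6 of 11 alternatives, with 0.0830 from the P1 groups alone and 0.0821 to 0.163 when any 1 of the 4 P1 libraries was left out. Cdkn2a, whose ARF product inhibits MDM2, was at 0 in both P10 NGO controls and at 9.86 and 1.69 TPM in the knockouts, and passed with a limma adjusted p of 0.0324. It held in 7 of 11 alternatives, with 0.394 from these groups alone, 0.0734 with no filter, and 0.0683 and 0.0961 without control replicates 1 and 2. No gene of either list passed by limma at P5 or in spermatogonia, where 1 and 0 of the 15 regulators and 1 and 10 of the other targets had an unadjusted p under 0.05 (11.8% and 16.1% of all genes).

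Between control NGO and GO at P10, 2 of the 15 regulators rose and 2 fell, and 1 of the 27 other targets rose and 6 fell, where 11% of all genes rose and 13.2% fell. The kinase gene Chek1 rose by 1.92 (limma adjusted p = 0.00102) and Mdm4, a relative of Mdm2 that holds p53 inactive, rose by 2.64 to a mean of 491 TPM (limma adjusted p = 0.00383). The targets Rps27l and Sesn1 fell by 0.59 and 3.19 (limma adjusted p of 0.0131 and 0.0191). Chek1 and Mdm4 passed in all 11 alternatives, Rps27l in 7 (up to 0.189) and Sesn1 in 8 (up to 0.127). In knockouts Mdm4 rose by 3.11 and Chek1 by 1.38 between these stages, while Cdkn2a and Atr fell by 2.36 and 1.78, with Atr past the threshold in 7 of 11 alternatives and the other 3 in 10. Between P5 and P10 control NGO 3 of the 15 regulators and 7 of the 27 other targets fell and none rose, where 17.1% of all genes fell and, as given for Bax, the balance of calls turned with quantile normalization. Cdkn2a was at 284 and 200 TPM in P5 controls and at 0 in both P10 controls, and Phlda3, Btg2 and Sfn fell as well; Sfn passed in 10 of 11 alternatives and the others in all 11, quantile normalization included. Rps27l fell and Ddb2 rose between P1 and P5 controls (limma adjusted p of 0.0236 and 0.0237, past the threshold in 6 and 7 of 11 alternatives), and Ddb2 rose by 3.96 in knockouts.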

How the data were processed

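The authors deposited 1 TPM table for the 16 oocyte libraries and 1 for the 4 spermatogonia libraries. Per the labels' protocols, RNA was purified with a micro kit and made into paired-end libraries with a low-input kit. The submitters' processing notes name Trimmomatic 0.39, STAR 2.5.4b, SAMtools 1.9, featureCounts 2.0.1 and GRCm38. The annotation, the counting strand and the step from reads to TPM are not given in the sources used here. TPM divides by gene length and fixes the total, so 1 very abundant gene lowers the values of all others.

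Reads per gene were recovered from TPM with GENCODE M21 exon lengths. Of values under 20 reads, 98.68% to 99.22% lay within 0.05 of a whole number, and the recovered depth was 15.35 to 30.14 M reads. Counting error is not part of any interval printed.

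The test was limma 3.58.1 in R 4.3.3 on log2(TPM + 1), through lmFit, contrasts.fit and eBayes (trend on). Its p-values are two-sided, adjusted over all genes by Benjamini-Hochberg, with a threshold of 0.05. Genes at 1 TPM or more in at least 2 libraries were tested, 20470 of 53722 in oocytes and 18671 of 55291 in spermatogonia. The 16 oocyte libraries shared 1 fit (8 residual degrees of freedom, prior 3.842) and the 4 spermatogonia libraries another (2 residual degrees of freedom, prior 3.973). Fold changes of low genes are understated on this scale. The tests were also run on simulated data with normal noise of equal spread in all groups. That run cannot speak for genes with few reads. Python 3.11.15 with pandas 2.3.3 and numpy 2.4.6 summarised values, and matplotlib 3.10.9 drew the plots.

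The 12 comparisons were knockout against control in the 5 cell groups, stages and ages among controls or among knockouts, and 2 differences of knockout effects. The P5 and P10 controls differ in genotype and Cre as well as in age. Alternatives were a pseudocount of 0.1, no filter, a filter at 5 TPM, quantile normalization, a replicate block, the compared groups alone, leaving out each replicate, and voom on recovered reads, the last chosen after seeing the data. All 10 members are named in every group, with up to 4 genes per comparison of the 2 other pathway lists (those past the test with the smallest adjusted p) and the 5 genes most like Trp63 among those with a group mean of at least 5 TPM, leaving out predicted models. The members and lists were chosen with earlier results of these data known. Promoter windows came from RefSeq (GRCm38.p6).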

Additional observations from a re-analysis of the deposited data

Results flagged for a closer look

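The knockout effect differed between growing and non-growing oocytes at P10 for 2 of the 9 members tested, by a test of the difference itself. For Pmaip1, knockout minus control was 5.85 on the log2(TPM + 1) scale in GO and 0.87 in NGO, a difference of 4.98 (limma adjusted p = 0.000882). For Bax it was 2.85 in GO and 0.14 in NGO, a difference of 2.71 (limma adjusted p = 0.0443, with 0.00756 to 0.220 over 15 alternatives). Bax rests on control GO libraries of 37 and 2 reads. Without control GO replicate 2 its difference was 1.81 with a limma adjusted p of 0.114.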

How the results depend on the processing

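Across alternatives no tested member that passed changed its direction. Fitting only the groups compared gave 1 member past the threshold for the knockout at P1 (0 in the shared fit), 2 in GO (4), 2 between P1 and P5 controls (0), 3 between NGO and GO controls (6), 1 between P1 and P5 knockouts (0), 0 between NGO and GO knockouts (2) and 1 for the difference of GO and NGO effects (2). Quantile normalization gave 1 between P1 and P5 controls. Voom on recovered reads gave 2 there, 1 between P1 and P5 knockouts and 1 for the GO and NGO difference. A filter at 5 TPM gave 1 between NGO and GO knockouts, and no filter gave 1 for the GO and NGO difference. Leaving out 1 library gave 1 to 2 members from P5 to P10 control NGO, 3 to 7 between NGO and GO controls, 1 to 2 between NGO and GO knockouts, 3 to 4 for the knockout in GO and 1 to 3 for the GO and NGO difference. The cause of these changes was not tested, beyond fewer libraries or other genes being in the fit.

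Deviations of same-numbered libraries correlated between -0.05 and 0.05 over the genes tested, so they showed no shared shift. That cannot tell whether the replicate numbers paired the samples, which the labels do not say. With a replicate block 5 members passed between NGO and GO controls in place of 6. The counts of all genes moved by over 1.5 times under some setting: to 71 from 348 at P1, from 0 to 449 around 278 at P5, from 0 to 1260 around 393 in P10 NGO, to 1527 from 2827 in GO, to 56 from 0 in spermatogonia, from 249 to 2358 around 962 for P5 against P1 controls, to 419 from 1051 in knockouts, to 2569 from 4639 for P10 against P5, to 1637 from 4180 for GO against NGO knockouts, from 10 to 318 around 64 for the P5 and P1 difference, and to 385 from 1527 for the GO and NGO difference. Quantile normalization moved the share of calls that were higher from 75.8% to 65.0% for P5 against P1 knockouts and from 64.8% to 52.7% for the GO and NGO difference. With 2 libraries per group and 0 to 37 reads of Pmaip1, Trp73, Bbc3, Bak1, Bax and Cdkn1a in control GO, those values are limited by depth.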
